A study of Mus musculus with 4 samples.

Results

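The genes described here encode 10 secreted factors through which gamma delta T cells may aid repair of an epithelium: Fgf7, Fgf10, Areg, Hbegf, Tgfa, Ereg, Igf1, Hgf, Tgfb1 and Vegfa. A probe set, the group of short probes that reads 1 transcript on the array, was taken as theirs if the platform's annotation gave that symbol and no other. This found 20 probe sets for 9 of the 10 genes, out of 45101 probe sets on the array and 18193 genes with a probe set of their own. No probe set carried Areg as its only symbol, so Areg, which encodes the epidermal growth factor receptor ligand amphiregulin, was not analysed here.

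RNA came from gamma delta intraepithelial lymphocytes sorted from the colon of conventionally raised C57b/6 mice. One group had drunk 2% dextran sulfate sodium (DSS), which injures the colonic epithelium, for 5 days and plain water for the following 3 days, and its reference had no treatment. Each group had 2 samples, each read on 1 array after RNA amplification. The labels used here give no age or sex, and do not say whether cells of several mice were pooled or whether the samples of a group came from separate mice. A p-value therefore covers no more than the spread between arrays, which may be technical.

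These factors act on epithelial cells by different routes. Fgf7 (keratinocyte growth factor) and Fgf10 bind an epithelial splice form of the receptor Fgfr2. Hbegf, Tgfa, Ereg and Areg are made as membrane-bound precursors, are cut free by ADAM proteases and bind Egfr or its relatives. Igf1 and Hgf signal through the receptor kinases Igf1r and Met. Tgfb1 is secreted in a latent form and signals through Tgfbr1 and Tgfbr2, restraining both epithelial proliferation and lymphocyte activity, and Vegfa directs the growth of blood vessels through Kdr and Flt1. Skin gamma delta T cells of the mouse are known for making Fgf7 and Igf1 at wounds, and Fgf7 has also been described in mouse intestinal gamma delta lymphocytes.

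Lymphocyte markers lay near the top of each array's signals and most growth factor values below the array median. Signals are linear intensities, which the authors had scaled so that each array has the same trimmed mean. Of 14 lymphocyte markers, 11 had a probe set. Their summed signal was 285433 and 295249 on the DSS arrays, against 530555 and 391848 on the untreated arrays. Their median log2 difference was -0.31, but 0.03 with the arrays scaled to a common median. Over all genes tested the median was -0.07, and 0.25 under that scaling. The lymphocyte median was -0.66 without untreated replicate 1 and 0.07 without untreated replicate 2, so its sign depends on the scaling and on single arrays. The T cell receptor chain gene Cd3g read 17026 and 13219 on the DSS arrays and 10949 and 12540 on the untreated arrays. On the brightest probe set, 2 of the 11, Cd3d and Cd3g, were higher on both DSS arrays, with log2 differences of 0.67 and 0.36. Another 3, Itgae, Gzmb and Cd8a, were lower on both, with log2 differences of -1.20, -0.73 and -0.73. Over all genes tested the shares were 17.2% and 23.8%, and none of the 11 passed limma. The groups of Gzmb overlapped after quantile normalization (-0.17) and those of Cd8a after scaling to a common median (-0.38). The other probe set of Itgae, 1449216_at, gave a log2 difference of 0.52, and other probe sets of Cd8a gave -0.85 to 0.46. No probe set was annotated to Trdc, Tcrg-C or Trgc1, so gamma delta cells could not be checked apart from other T cells. Hybridisation controls averaged 14372 and 15271 on the DSS arrays and 82269 and 59067 on the untreated arrays. Polyadenylated control transcripts averaged 11498 and 8526 on the DSS arrays, against 84702 and 10000 on the untreated arrays, so untreated replicate 1 stood apart in these. The hybridisation controls instead differed by group, with both untreated arrays above both DSS arrays. That difference falls along the same split as DSS treatment, and its part in the values below was not tested. Replicates correlated across genes, which are not independent, at 0.92 for the DSS arrays and 0.794 for the untreated arrays.

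Markers of macrophages and dendritic cells moved with the groups. The summed signal of the 12 such genes with a probe set was 64889 to 90381 on the DSS arrays and 5418 to 11005 on the untreated arrays. Of the 11 tested, 10 were higher on both DSS arrays and 0 lower, against 17.2% and 23.8% of all genes tested. Among these, Mrc1 read 537 and 1485 on the DSS arrays and 190 and 173 on the untreated arrays. C1qc read 478 and 641 on the DSS arrays and 51.8 and 10.9 on the untreated arrays. Both exceeded the array median only on the DSS arrays, so they entered the test only through the group where they were high. Csf1r, on which macrophages depend for survival, read 33267 and 40991 on the DSS arrays and 4342 and 1162 on the untreated arrays. The lowest signal among these markers was that of C1qc on untreated replicate 2. No detection calls were used, so whether a marker was present on an array was not read. Macrophages can make Igf1, Hbegf, Tgfb1 and Vegfa, and the part of these cells in the values below was not tested. In such bulk samples, fewer cells of a type and less RNA per cell cannot be told apart.

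Sums for other cell types that could supply these factors differed less. Fibroblast and stromal markers, from cells that make Fgf7, Fgf10 and Hgf, summed to 7882 to 8578 on the DSS arrays and 5965 to 12975 on the untreated arrays, most of it Thy1, which T cells also carry. Their collagen gene Col3a1 read 158 and 43.5 on the DSS arrays, against 96.6 and 70.5 on the untreated arrays. Colonic epithelial markers summed to 12995 to 15641 on the DSS arrays and 9385 to 11371 on the untreated arrays. Of the 9 tested, 2 were higher and 1 lower on both DSS arrays, against 17.2% and 23.8% of all genes tested. Their median log2 difference was 0.76, but -0.04 without untreated replicate 2. Mast cell and basophil markers summed to 2799 to 2973 on the DSS arrays and 1598 to 2217 on the untreated arrays. Kit alone, on its brightest probe set, held 1967 and 1942 of these on the DSS arrays and 751 and 798 on the untreated arrays. Its other probe set read 55.7 and 282 on the DSS arrays and 134 and 337 on the untreated arrays. That gave a log2 difference of -0.58 with groups that overlap, so the sign for Kit depends on the probe set. The other 7 genes summed to 1005 and 857 on the DSS arrays against 847 and 1419 on the untreated arrays, so their groups overlap. The epithelial sum was 1.38-fold higher on the DSS arrays, where that of macrophages and dendritic cells was 9.45-fold higher.

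**Figure D1:**
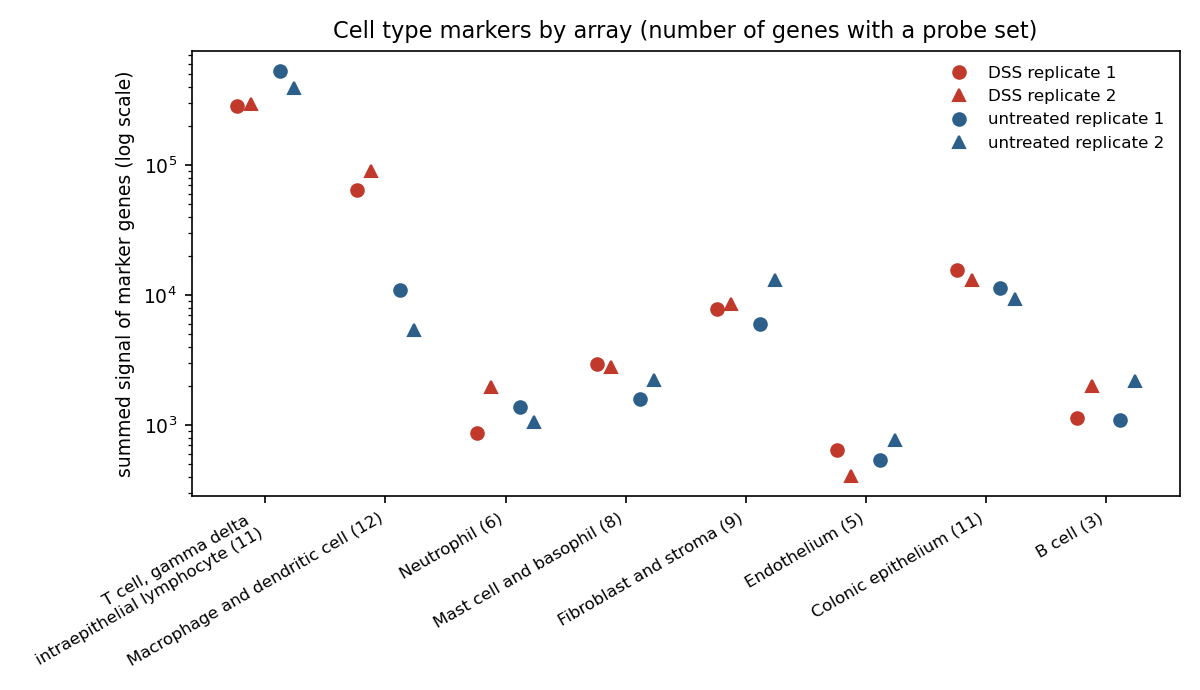
Summed signal (log scale) of the marker genes of 8 cell types on each array, with DSS replicates in red and untreated replicates in blue. Points are single arrays and the number in brackets is the number of genes summed. The macrophage and dendritic cell sums were 64889 to 90381 on the DSS arrays and 5418 to 11005 on the untreated arrays, the widest separation of the 8 lists.

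The first question was which of the factors exceed the array median, a level that splits the probe sets of an array evenly into brighter and dimmer ones. It was 157 and 163 on the DSS arrays and 194 and 214 on the untreated arrays. The factors' probe sets exceeded it in 8 of 20 cases on each DSS array, and in 5 and 10 of 20 cases on the untreated arrays. Of the 20 probe sets, 3 exceeded the median on all 4 arrays, 9 did so on at least 2 arrays, 5 on 1 array and 6 on no array. Over all 34945 probe sets with a single gene symbol, 35.7% exceeded it on all 4 arrays, 57.9% on at least 2 arrays and 27.5% on no array, against 15%, 45% and 30% of the factors' probe sets. Against the median of those single-symbol probe sets, which is higher, 6 in place of 9 exceeded it on at least 2 arrays. Probe sets differ in how well they bind, so a low signal is a position on the array and not an amount of transcript, and no detection calls were used.

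By group, 5 of the 20 probe sets exceeded the median on both DSS arrays and 4 on both untreated arrays, where the shares over all probe sets were 45.3% and 41.6%. The factors' probe sets read 18.7 to 349 on DSS replicate 1 and 9.86 to 436 on DSS replicate 2, against 6.26 to 442 on untreated replicate 1 and 7.26 to 682 on untreated replicate 2. A single value, that of Tgfb1 on untreated replicate 2, passed its array's 75th percentile. For scale, the 3 control probe sets for trpn, a bacterial transcript, read between 5.87 and 141 across the 4 arrays, and whether it had been added to the samples is not given in the sources used here.

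**Figure D2:**
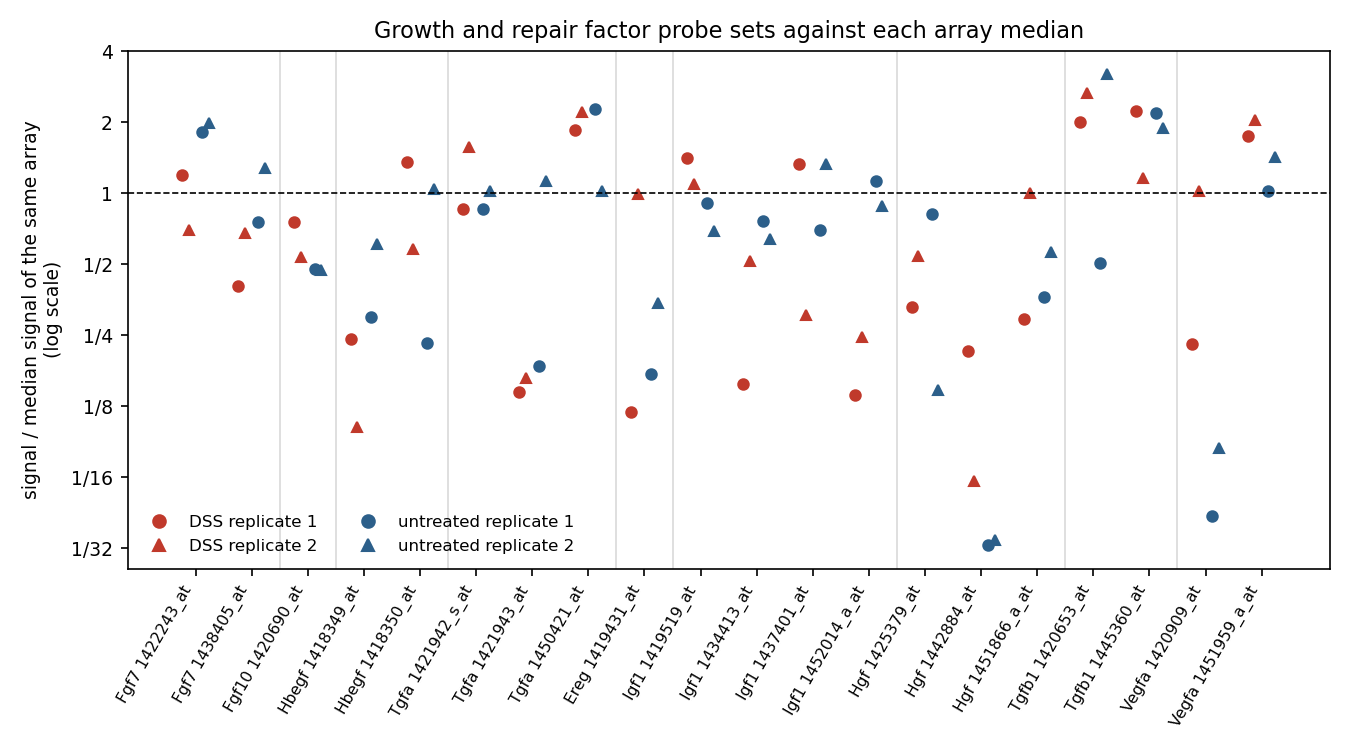
Signal of each growth factor probe set divided by the median signal of the same array (log scale), with DSS replicates in red and untreated replicates in blue, and the array median as a dashed line. Tgfa 1450421_at, Tgfb1 1445360_at and Vegfa 1451959_a_at lie above the line on all 4 arrays, while Fgf10, Ereg, Hbegf 1418349_at, Igf1 1434413_at, Hgf 1425379_at and Hgf 1442884_at lie below it on all 4.

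The 3 probe sets above the median on every array belong to Tgfa, Tgfb1 and Vegfa. Tgfa 1450421_at read 292 and 362 on the DSS arrays and 442 and 217 on the untreated arrays. Tgfb1 1445360_at read 349 and 189 on the DSS arrays and 424 and 402 on the untreated arrays. Vegfa 1451959_a_at read 275 and 334 on the DSS arrays and 199 and 305 on the untreated arrays. The Tgfa and Vegfa groups overlap, while both DSS values of Tgfb1 1445360_at are below both untreated values.

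At the other end, Fgf10 and Ereg exceeded the median on none of the arrays with their only probe set. Ereg came close on 1 array, with 162 on DSS replicate 2 where the median was 163. Hgf exceeded it on 1 array with 1 of its 3 probe sets, at 164 on that same array. These 3 genes did not pass the filter for testing, which asked for a signal above the array median on at least 2 of the 4 arrays.

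The second question was whether the factors differ after DSS. The remaining 6 genes, Fgf7, Hbegf, Tgfa, Igf1, Tgfb1 and Vegfa, passed the filter and were tested on their brightest probe set among 12424 genes, on the scale log2(signal + 32), which understates differences of dim genes. None of the 6 passed limma with Benjamini-Hochberg adjustment over all genes, the smallest adjusted p among them being 0.649, and 0% of the 12424 genes passed. At an unadjusted p under 0.05 limma had 0 of the 6, against 7.52% of all genes. With 2 arrays against 2, an exact permutation test cannot give a two-sided p below 0.333. Limma called 1791 genes without untreated replicate 1 and 755 without untreated replicate 2, and 0 of the 6 factors in either case. The spread in those fits comes from the 2 DSS arrays alone, and the lone untreated array is assumed to vary like them, so they do not bear on how stable the factors' calls are.

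The groups did not overlap for 3 of the 6 tested genes, against 41% of all genes tested, so this share is no result about the factors. A second fit took every probe set with a single symbol as a feature, with no filter, so that each of the factors' 20 probe sets has an estimate. In the text below, the standard error of a gene's tested probe set is from the first fit. Those of all other probe sets are from the second fit, so the standard errors within a gene are not comparable. In the second fit 0 of the 20 passed limma's adjusted p, and 1 had an unadjusted p under 0.05 against 6.5% of all probe sets. The groups did not overlap for 10, against 39.2% of all probe sets. Of these 10, 3 were higher on both DSS arrays, against 14.5% of all probe sets, and 7 were lower on both, against 24.7%. That split depends on the scaling: it was 5 higher and 6 lower after quantile normalization, where the shares over all probe sets were 18.1% and 18.6%, and likewise 5 and 6 after scaling to a common median, where they were 24.1% and 15.2%.

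**Figure D3:**
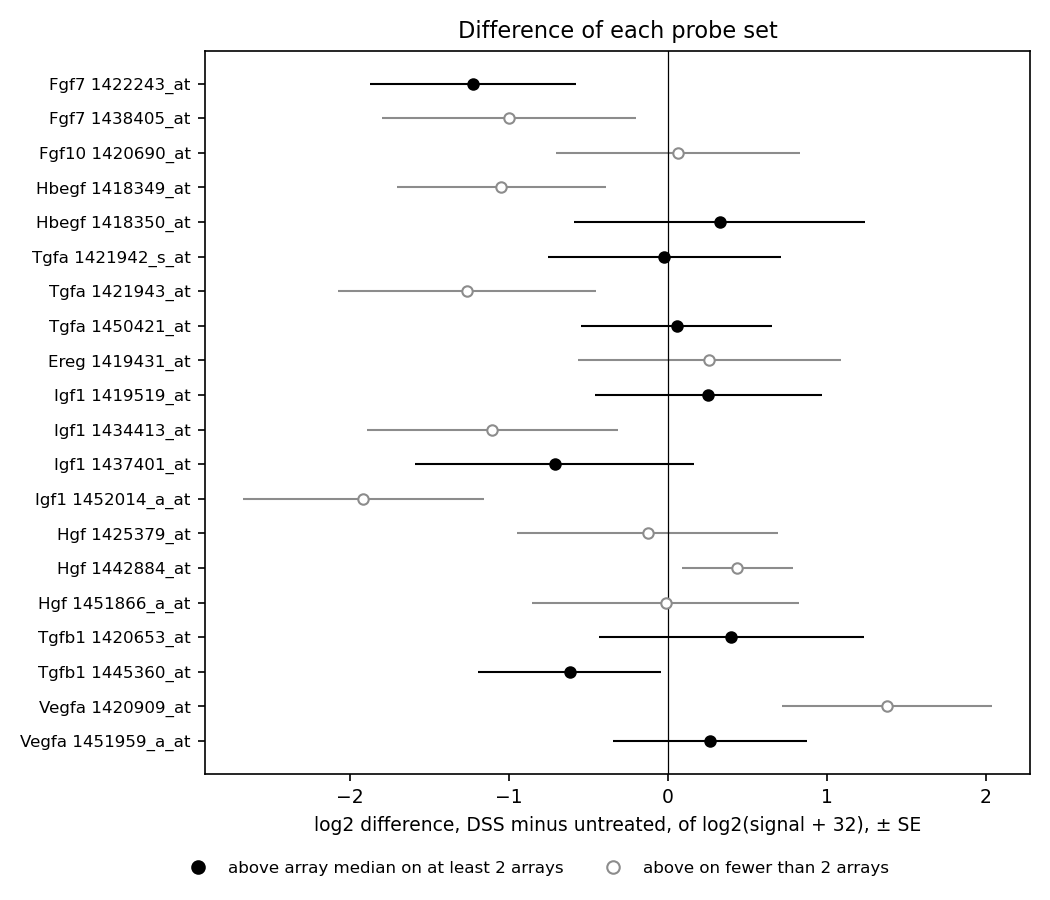
Log2 difference of each probe set, DSS minus untreated, with its standard error from limma's fit over 34945 probe sets (n = 2 arrays per group). Filled points exceeded the array median on at least 2 arrays. None passed the adjusted test, and the probe sets of Hbegf, Tgfa, Igf1, Hgf and Tgfb1 fall on both sides of 0.

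Of the fibroblast growth factors, Fgf7 had the largest difference of the 6 tested genes and the same sign on both probe sets. Fgf7 1422243_at read 188 and 114 on the DSS arrays and 352 and 426 on the untreated arrays. It was above the median on both untreated arrays and on 1 DSS array, and the groups do not overlap. The log2 difference was -1.23 ± 0.55 (SE, n = 2 per group; limma adjusted p = 0.649). Fgf7 1438405_at read 63.5 and 110 on the DSS arrays and 146 and 273 on the untreated arrays, a log2 difference of -1.0 ± 0.80. Both probe sets kept non-overlapping groups and a negative sign under quantile normalization (-0.98 and -0.78) and with a common median (-0.92 and -0.73).

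Genes of like signal also had a median below 0: it was -0.33 over the 1242 tested genes with mean signals of 222 to 292, the range in which Fgf7 lies. Fgf10, which serves the same receptor, read 119 and 88.0 on the DSS arrays and 92.5 and 101 on the untreated arrays, all below the medians. Its groups overlap, and the log2 difference was 0.06 ± 0.77. It was 0.32 after common-median scaling, where the DSS values lie above the untreated ones.

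The ligands of the Egfr family gave no common direction. Hbegf 1418350_at, read on the brighter of 2 probe sets, had 212 and 94.7 on the DSS arrays and 45.1 and 224 on the untreated arrays. The replicates of each group differ by more than the groups do, with a log2 difference of 0.32 ± 0.96. Hbegf 1418349_at read 38.0 and 16.7 on the DSS arrays and 57.7 and 131 on the untreated arrays, below every median, with a log2 difference of -1.05 ± 0.66 and groups that do not overlap. The estimates of the 2 Hbegf probe sets thus have opposite signs. The first one turns to -0.54 without untreated replicate 1 and to -0.15 without DSS replicate 1.

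Tgfa 1450421_at, whose values are given above, had a log2 difference of 0.05 ± 0.52, small beside its standard error. The sign turned without either of 2 arrays, to -0.41 without untreated replicate 2 and -0.09 without DSS replicate 2. Tgfa 1421942_s_at, whose ending marks a probe set that may bind related transcripts, read 134 and 257 on the DSS arrays and 166 and 219 on the untreated arrays, with groups that overlap. Tgfa 1421943_at read 22.6 and 26.9 on the DSS arrays and 35.9 and 242 on the untreated arrays. Its log2 difference was -1.26 ± 0.81, and untreated replicate 2 held the only one of its values above a median. Ereg read 18.7 and 162 on the DSS arrays and 33.2 and 73.2 on the untreated arrays, so the untreated values lie within the range of the DSS values.

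The 4 probe sets of Igf1, a growth factor for epithelium and many other tissues, disagreed. Igf1 1419519_at, the brightest, read 222 and 178 on the DSS arrays and 176 and 148 on the untreated arrays. The DSS values are above their own arrays' medians and the untreated values below theirs, but the untreated medians are higher. This probe set thus passed the filter only through the DSS arrays, where it was high. The log2 difference was 0.25 ± 0.63 (limma adjusted p = 0.919) and DSS replicate 2 exceeded untreated replicate 1 by a small margin. Igf1 1452014_a_at read 21.9 and 40.1 on the DSS arrays and 218 and 189 on the untreated arrays. These groups are far apart in the opposite direction, with a log2 difference of -1.92 ± 0.76, and this was the probe set with an unadjusted limma p under 0.05 (0.0358, adjusted 0.757).

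The remaining Igf1 probe sets also had negative estimates. Igf1 1434413_at read 24.3 and 84.2 on the DSS arrays and 148 and 136 on the untreated arrays, below every median. Igf1 1437401_at read 210 and 49.8 on the DSS arrays and 135 and 285 on the untreated arrays, with groups that overlap. Averaging the kept Igf1 probe sets gave a log2 difference of -0.23, of the opposite sign to the brightest probe set alone. The sign for Igf1 thus depends on the probe set read.

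Hgf, a stromal factor that acts on epithelium through Met, lay below the median at all but 1 of its 12 values. Hgf 1425379_at read 51.8 and 88.2 on the DSS arrays and 158 and 31.4 on the untreated arrays. Hgf 1451866_a_at read 46.1 and 164 on the DSS arrays and 70.4 and 121 on the untreated arrays. Both overlap between groups. Hgf 1442884_at read 33.8 and 9.86 on the DSS arrays and 6.26 and 7.26 on the untreated arrays. Its DSS values are above its untreated ones, but the untreated values are the lowest of all 20 probe sets, at percentiles 1.54 and 1.39 of their arrays.

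Tgfb1 was read by 2 probe sets of similar signal and different outcome. Tgfb1 1445360_at, whose values stand above, had a log2 difference of -0.62 ± 0.50 (limma adjusted p = 0.731), and its groups overlap under both other scalings. Tgfb1 1420653_at read 314 and 436 on the DSS arrays and 98.5 and 682 on the untreated arrays. The untreated replicates of that probe set lie on either side of the DSS values, 2.45 apart on the log2 scale, the widest gap between replicates among the 20 probe sets, with a group difference of 0.40 ± 0.83.

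Vegfa had 2 probe sets with estimates above 0. Vegfa 1451959_a_at, whose values stand above, had a log2 difference of 0.26 ± 0.51 (limma adjusted p = 0.89), and its DSS values exceed both untreated values only after the other scalings. Vegfa 1420909_at read 36.2 and 167 on the DSS arrays and 8.33 and 17.8 on the untreated arrays. The groups do not overlap, with a log2 difference of 1.38 ± 0.66 and an unadjusted limma p of 0.0717, but 1 value of the 4, that of DSS replicate 2, exceeds a median.

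The receptors of these factors were read in the same arrays, and the 2 that bind Tgfb1 stood well above the array medians and higher on both DSS arrays. Tgfbr2 1426397_at read 8111 and 6520 on the DSS arrays and 2647 and 3511 on the untreated arrays, a log2 difference of 1.25 ± 0.38 (limma adjusted p = 0.649). Tgfbr1 1420895_at read 3200 and 2505 on the DSS arrays and 1512 and 1221 on the untreated arrays, a log2 difference of 1.04 ± 0.39 (limma adjusted p = 0.649). Both receptors were higher on both DSS arrays under all 3 scalings, and neither passed. Their other probe sets were dim and split in sign: Tgfbr1 gave 1.43 and -0.45, and Tgfbr2 gave -0.15 and -0.60. T cells and macrophages both carry these receptors, and the part of the macrophages was not tested.

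Egfr, Igf1r and Flt1 were lower on both DSS arrays under all 3 scalings on their brightest probe set. Egfr 1460420_a_at read 427 and 658 on the DSS arrays and 1025 and 905 on the untreated arrays, a log2 difference of -0.82 ± 0.42. Igf1r 1452982_at read 233 and 261 on the DSS arrays and 680 and 404 on the untreated arrays, a log2 difference of -1.0 ± 0.47. The Vegfa receptor Flt1 read 87.4 and 108 on the DSS arrays and 275 and 402 on the untreated arrays, a log2 difference of -1.50 ± 0.63. None passed, and other probe sets of Egfr, Igf1r and Flt1 gave estimates of both signs. Flt1 exceeded the median on the untreated arrays alone, so it passed the filter only through the group where it was high.

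Fgfr2, Kdr and Met overlapped between groups on their brightest probe sets. Fgfr2 1433489_s_at read 424 and 536 on the DSS arrays and 597 and 512 on the untreated arrays. Its other probe sets were lower on both DSS arrays. Fgfr2 1420847_a_at read 244 and 312 on the DSS arrays and 329 and 607 on the untreated arrays, a log2 difference of -0.64 ± 0.57. Its groups overlapped under the other scalings. Fgfr2 1443211_at, below every median, gave -0.66 ± 0.46. Met read 12.7 and 188 on the DSS arrays and 383 and 26.9 on the untreated arrays, so each group holds 1 high and 1 low array. Erbb4, a receptor for Hbegf and Ereg, read 13.0 and 13.9 on the DSS arrays and 13.7 and 6.85 on the untreated arrays and was not tested.

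**Figure D4:**
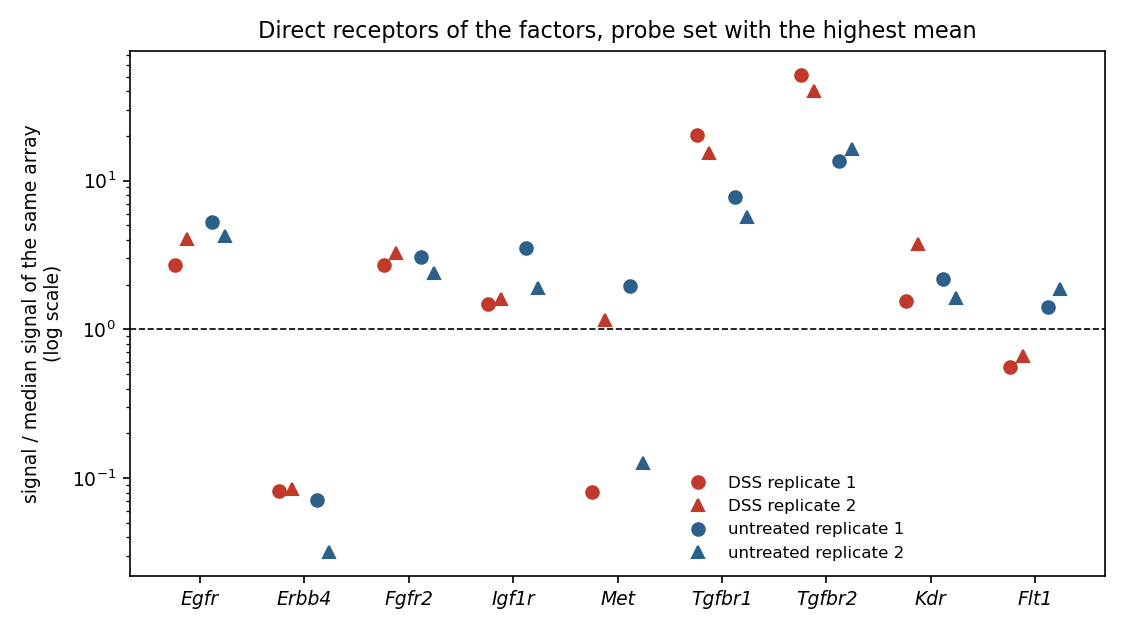
Signal of the direct receptors on the probe set with the highest mean, divided by the median signal of the same array (log scale), with DSS replicates in red and untreated replicates in blue. Tgfbr1 and Tgfbr2 stand far above the medians and are higher on both DSS arrays, Egfr, Igf1r and Flt1 are lower on both DSS arrays, and none passed the adjusted test.

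The wider pathway was described through 5 lists, none of which had a member that passed limma with all 4 arrays. Without untreated replicate 1, 9 of their genes passed, and without untreated replicate 2, 5 passed, 1 in each list, in fits where the lone untreated array is assumed to vary as the DSS arrays do. With the arrays scaled to a common median, the median log2 difference was 0.29 for receptors, 0.12 for other ligands, 0.27 for inhibitors and 0.23 for downstream genes, against 0.25 over all genes. Of 18 receptors 15 were tested, with 3 higher and 5 lower on both DSS arrays and a median log2 difference of -0.03, against -0.07 over all 12424 genes. Nrp1 1448943_at, a coreceptor for Vegfa, had one of the 3 smallest p-values of the list, with 286 and 628 on the DSS arrays and 80.3 and 96.4 on the untreated arrays. Of 20 further ligands of the same families 12 were tested, with 1 higher and 5 lower (median -0.19). Inhba, a subunit of activin, read 284 and 568 on the DSS arrays and 154 and 95.0 on the untreated arrays on its brightest probe set. Its other probe set gave a log2 difference of -0.27, with groups that overlap. Fgf2 read 87.1 and 12.3 on the DSS arrays and 249 and 268 on the untreated arrays, and Igf2 was also lower on both, at 77.4 and 184 on the DSS arrays against 265 and 285 on the untreated arrays. Erbb2, 1 of the 5 lower receptors, read 43.3 and 102 on the DSS arrays and 322 and 275 on the untreated arrays. Nrp1, Inhba, Fgf2 and Erbb2 exceeded the median only on the arrays of the group where each was high. They thus passed the filter through that group alone, and their separation is not read as a result. Over all genes 17.2% were higher and 23.8% lower on both DSS arrays.

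Of 21 genes that release or activate the factors 14 were tested, with 4 higher and 6 lower on both DSS arrays. The shares over all genes were 17.2% and 23.8%. The median log2 difference of the 14 was -0.43, against -0.07 over all genes. With the arrays scaled to a common median it was -0.10, against 0.25 over all genes. It was -0.62 without untreated replicate 1 and -0.16 without DSS replicate 1, against -0.18 and -0.04 over all genes. Adam9, a membrane protease that can cut Hbegf free, read 686 and 813 on the DSS arrays and 427 and 374 on the untreated arrays (log2 difference 0.85 ± 0.40). St14 (matriptase), an epithelial protease that activates Hgf, read 155 and 102 on the DSS arrays and 529 and 408 on the untreated arrays (log2 difference -1.65 ± 0.54). Ltbp3, which anchors latent Tgfb1 in the matrix, read 746 and 981 on the DSS arrays and 1270 and 2348 on the untreated arrays. All 3 are separated between groups, and none passed limma's adjusted test. St14 exceeded the median on the untreated arrays alone, so it entered the test only through the group where it was high. The other probe sets of Ltbp3 gave log2 differences of 0.19, -0.58 and -1.04.

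Inhibitors, feedback genes and binding proteins had 2 higher and 8 lower on both DSS arrays of the 19 tested of 22. Their median was -0.07, and the shares over all genes were 17.2% higher and 23.8% lower. Of the 8 lower, Smad6 read 122 and 77.6 on the DSS arrays and 287 and 281 on the untreated arrays. It exceeded the median on the untreated arrays alone, so it entered the test only through the group where it was high. Errfi1, a feedback inhibitor of Egfr, read 5005 and 3993 on the DSS arrays and 3149 and 1582 on the untreated arrays on its brightest probe set. Its other probe set was dim and gave a log2 difference of -0.09, with groups that overlap. Lrig1, another brake on Egfr, read 303 and 289 on the DSS arrays and 571 and 530 on the untreated arrays on its brightest probe set. Its other probe sets had estimates above 0, at 1.10 and 0.76, so the sign for Lrig1 depends on the probe set read. Igfbp6, a binding protein of insulin-like growth factors, read 242 and 341 on the DSS arrays and 508 and 753 on the untreated arrays.

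Downstream factors and inducers had 4 higher and 1 lower of the 16 tested of 19, against 17.2% and 23.8% of all genes, with a median of -0.10. The lower gene, Irs1, read 141 and 39.5 on the DSS arrays and 203 and 423 on the untreated arrays. It exceeded the median on the untreated arrays alone, so it entered the test only through the group where it was high. Hif1a, the hypoxia factor that induces Vegfa, read 3722 and 4107 on the DSS arrays and 2386 and 928 on the untreated arrays on its brightest probe set, a log2 difference of 1.37 ± 0.51 (limma adjusted p = 0.649), and its other probe sets gave 0.13, -0.29 and 1.04. Egr1, an immediate early gene, read 2533 and 3406 on the DSS arrays and 2174 and 936 on the untreated arrays. Smad2, which carries the Tgfb1 signal to the nucleus, read 840 and 938 on the DSS arrays and 66.7 and 680 on the untreated arrays, with a log2 difference of 1.80 ± 0.86 and untreated replicate 1 far below the other 3 arrays.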

How the data were processed

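The authors deposited a linear intensity for each probe set on each array. GCOS produced these, per the submitters' processing notes, in a version not given in the sources used here. Each array's mean, after its lowest and highest 2% are dropped, is 500, so the authors had scaled the arrays. Probe sets were named through the platform annotation: 34945 carried 1 symbol, control probe sets left out, and 34741 of these matched RefSeq genes by gene number, with 0 symbols updated. Signals were analysed as log2(signal + 32) without further normalization. A gene was tested on its brightest probe set above its array's median on at least 2 of 4 arrays, which left 12424 genes. The groups were compared with limma 3.58.1 under R 4.3.3 (intensity trend, group as the only term, Benjamini-Hochberg over all genes, threshold 0.05). The step was tested on simulated data. The factors and gene lists were chosen with earlier results of these data known. All factors and their direct receptors were named, and at most 3 genes per pathway list by smallest p. Erbb2, Smad6 and Irs1 were named besides these, because they passed the filter only through the group where they were high. Col3a1, Thy1, Cd3d, Cd3g, Itgae, Gzmb, Cd8a, Csf1r, Mrc1, C1qc and Kit illustrate marker lists and were chosen after their values were seen. The fit over every probe set and the mast cell sum without Kit were also added after seeing the data. The number of arrays limits the precision.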

Additional observations from a re-analysis of the deposited data

How the results depend on the processing

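Under the 14 alternatives run, 0 of the factors passed limma. Over all genes limma called 0, but 3 when a gene's kept probe sets were averaged and 67 with the replicate number as a block. Leaving out 1 array gave 0 to 1791 genes: 1791 without untreated replicate 1, 755 without untreated replicate 2 and 0 without either DSS array, and 0 of the factors each time. Without an untreated array the spread comes from the DSS arrays alone, and the other way round. Pathway genes were called under none of the alternatives but those without an untreated array (9 and 5). The replicate block is not taken as pairing, since the labels give no shared source and the deviations of same-numbered arrays correlated at 0.0522. Common-median scaling moved the median of all genes by 0.32. The differences of Fgf7, -1.53 to -0.93 without 1 array, and of Igf1, 0.12 to 0.39, kept their sign there. Those of Hbegf (-0.54 to 1.19), Tgfa (-0.41 to 0.52) and Vegfa (-0.0079 to 0.54) did not, and Tgfb1 gave -1.01 to -0.23. Tgfb1 turned to 0.53 after quantile normalization and to 0.22 with the larger pseudocount, because 1420653_at then became its brightest probe set, and Igf1 turned to -0.23 when its kept probe sets were averaged. Averaging left 1 factor with groups that do not overlap, against 3. Asking for the median on all 4 arrays left 3 factors in place of 6, and 0 probe sets in place of 9 exceeded the 75th percentile on at least 2 arrays. Medians of the 5 pathway lists moved by more than the spread between replicates in 23 of 60 recomputations.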
